A study of Mus musculus with 21 samples.

Results

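Messenger RNA of 3 secreted neurotrophic factors, Bdnf, Gdnf and Ntf3, was followed in sorted mouse lung fibroblasts during silica- and bleomycin-induced fibrosis. The 3 genes were chosen by symbol out of 23204 symbols counted in each of 21 libraries, with earlier results of these libraries known, so their own values are given as a description and carry no test. All 3 passed the filter on low counts, as did 11669 genes in all. The SiO2 groups received crystalline silica at 400 mg/kg and were sampled 7, 14 or 63 days later. The BLM groups received bleomycin sulfate at 2 mg/kg and were sampled on the same days. Each agent was given once by oropharyngeal aspiration, and the design text of the series calls the silica model progressive and the bleomycin model reversible. The last group was untreated, and the labels do not state that it received saline. Every group had 3 libraries, and every mouse, untreated ones included, was a female C57BL/6 animal with the Col1a2-GFP transgene, in which the promoter of a collagen gene drives a green fluorescent protein. Ages are not given. Each library came from 10000 sorted cells that were negative for CD45, CD31, EpCAM, CD146, Ter119 and propidium iodide and positive for GFP, so only cells with an active Col1a2 promoter were measured. The labels do not say whether the 3 libraries of a group came from separate mice, so tests measure the spread between libraries, which may be technical.

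BDNF and neurotrophin-3, the product of Ntf3, belong to the neurotrophin family, whose members are made as larger precursors, cut by proprotein convertases or plasmin, and bound by Trk receptor tyrosine kinases and by the p75 receptor. BDNF binds TrkB, encoded by Ntrk2, and neurotrophin-3 binds mainly TrkC, encoded by Ntrk3. GDNF is a distant member of the TGF-beta superfamily that binds the co-receptor GFRα1, encoded by Gfra1, and then the kinase Ret or the adhesion molecule NCAM. All 3 factors support the survival and outgrowth of neurons, and in the lung they are known mainly for effects on sensory and autonomic nerves and on airway smooth muscle.

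In the GENCODE vM21 annotation of GRCm38 (mm10), Bdnf (ENSMUSG00000048482.14) lies on the plus strand at chr2:109674700-109727007, with 11 annotated transcripts. An antisense gene, Gm45346 at chr2:109670908-109676591, meets a Bdnf exon, and since the strand setting of the counting is not given in the sources used here, reads of that stretch cannot be assigned to 1 strand. Gdnf (ENSMUSG00000022144.4) lies on the plus strand at chr15:7810846-7837575, and Ntf3 (ENSMUSG00000049107.13) on the minus strand at chr6:126101412-126166910. No other annotated gene overlaps an exon of either.

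The RefSeq table of promoter windows (GRCm38.p6, 250 bases before to 50 after each start) held 7 starts of Bdnf, 2 of Gdnf and 2 of Ntf3 among 32851 windows. Libraries of 3′ tags do not tell which start was used. On both strands 7 motifs were searched, with the letters given below. Below are the last 160 bases before a start for the 3 windows of Bdnf and Gdnf that held a match there, and for 1 Ntf3 window, which held none, shown for comparison. Capitals mark the matches, and each sequence runs 5′ to 3′ on the strand of its gene.
Bdnf window 2, chr2:109676872-109677031, plus strand: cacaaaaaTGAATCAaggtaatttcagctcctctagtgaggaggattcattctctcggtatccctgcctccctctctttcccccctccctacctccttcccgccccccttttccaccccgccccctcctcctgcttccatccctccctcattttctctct
Bdnf window 7, chr2:109722761-109722920, plus strand: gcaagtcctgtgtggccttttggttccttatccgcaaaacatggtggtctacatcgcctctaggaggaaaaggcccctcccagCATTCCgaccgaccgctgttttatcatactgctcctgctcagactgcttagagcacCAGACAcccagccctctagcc
Gdnf window 1, chr15:7809888-7810047, plus strand: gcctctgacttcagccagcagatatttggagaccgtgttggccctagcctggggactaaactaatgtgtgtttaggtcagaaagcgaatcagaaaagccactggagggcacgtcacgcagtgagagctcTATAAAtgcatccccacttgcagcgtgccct
Ntf3 window 2, chr6:126164961-126165120, minus strand: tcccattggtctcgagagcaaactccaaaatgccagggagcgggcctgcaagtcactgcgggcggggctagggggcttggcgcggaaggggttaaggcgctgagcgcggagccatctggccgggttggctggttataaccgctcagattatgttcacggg
The AP-1-like motif TGANTCA, in which any middle base was accepted, was held by 7.81% of all windows. Bdnf window 2 matched it at -152 from the start with the letters TGAATCA. It also held a TEAD match (letters GGAATG) at -223, outside the stretch shown. Bdnf window 7 held a CAGA box, the letters CAGACA, at -21, as did 21% of windows somewhere along their length. The same window held TEAD matches on the other strand at -77 and, past the start, at 18, and 14.7% of windows held that motif. Gdnf window 1 held a TATA box, the letters TATAAA, at -31, and 13.6% of windows held it. The cAMP response element TGACGTCA, found in 1.79% of windows, had no match in the 11 windows of these genes. Neither had the SMAD box GTCTAGAC, found in 0.213%, nor the EGR motif GCGTGGGCG, found in 0.612%. A match describes the letters and is not evidence of binding, and the lack of a match does not show that a site is absent. Variants of the letters were not counted. Bdnf window 3, whose bases are not shown, held TCACGTCA, which differs from the cAMP response element letters at 1 base.

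Total counts ran from 2080636 to 4477283 per library, with a median of 3774431, and 14963 to 16224 symbols had a count. Levels below are CPM, tag counts divided by the library total and scaled between libraries by the trimmed mean of M-values (TMM). At the median depth the filter corresponded to about 2.65 CPM. Bdnf reached that level in 2 and Gdnf in 1 of the 3 untreated libraries, so both passed through the treated groups. A gene that passes only where it is high has to differ from where it is low, and the counts below are to be read with that. The 7 fibroblast markers, among them Col1a1, Col3a1, Dcn and Pdgfra, were present in every group and summed to 16580 to 30370 CPM per library, so the labelled cell type carried its defining markers.

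Bdnf was low in untreated fibroblasts and higher in all 18 libraries of treated mice, highest at day 14 of bleomycin. In the SiO2 groups Bdnf had 28.3, 26.3 and 32.1 CPM at day 7, 32.7, 43.4 and 26.0 CPM at day 14, and 46.8, 51.9 and 52.5 CPM at day 63. In the BLM groups it had 14.2, 29.8 and 28.8 CPM at day 7, 73.8, 104.6 and 100.03 CPM at day 14, and 7.47, 14.3 and 17.6 CPM at day 63. The untreated libraries had 1.81, 3.52 and 4.21 CPM. No treated library reached down to the untreated range, the day 14 BLM libraries stood above all the others, and the day 63 SiO2 libraries above the remaining ones. The untreated level rests on 30 counts over 3 libraries, or 3.01 CPM pooled with an exact 95% Poisson interval of 2.03 to 4.29. Reads carry no molecular identifiers, so such intervals cover counting error only. In sorted bulk samples, fewer cells that express a gene and less RNA per cell cannot be told apart.

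Gdnf followed the same outline. It had 33.1, 25.8 and 26.3 CPM at day 7 of SiO2, 34.2, 41.6 and 33.3 CPM at day 14, and 47.3, 39.9 and 41.2 CPM at day 63. In the BLM groups Gdnf had 7.54, 13.5 and 12.0 CPM at day 7, 71.7, 78.0 and 79.9 CPM at day 14, and 9.46, 18.1 and 29.1 CPM at day 63. The untreated libraries had 2.85, 1.26 and 2.34 CPM, from 21 counts in all, which pooled to 2.11 CPM with an exact 95% Poisson interval of 1.30 to 3.22. Again no treated library overlapped the untreated ones, and the day 14 BLM libraries stood highest. At day 63 of BLM the 3 libraries spread widely, with a mean of 18.9 ± 9.86 CPM (SD, n = 3), and the highest of them lay inside the range of day 7 of SiO2.

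Ntf3 was highest on average in untreated fibroblasts. It had 2.51, 3.99 and 2.03 CPM at day 7 of SiO2, 3.86, 8.26 and 8.504 CPM at day 14, and 3.68, 1.33 and 2.00 CPM at day 63. In the BLM groups Ntf3 had 2.03, 5.81 and 2.85 CPM at day 7, 4.59, 7.17 and 5.80 CPM at day 14, and 11.2, 9.76 and 5.34 CPM at day 63. The untreated libraries had 8.29, 11.6 and 11.7 CPM. Libraries at day 7 of both agents, at day 14 of BLM and at day 63 of SiO2 all lay below the untreated ones, whereas the day 14 SiO2 and day 63 BLM libraries overlapped them. These values rest on few tags, with 5 to 46 counts per library.

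**Figure D1:**
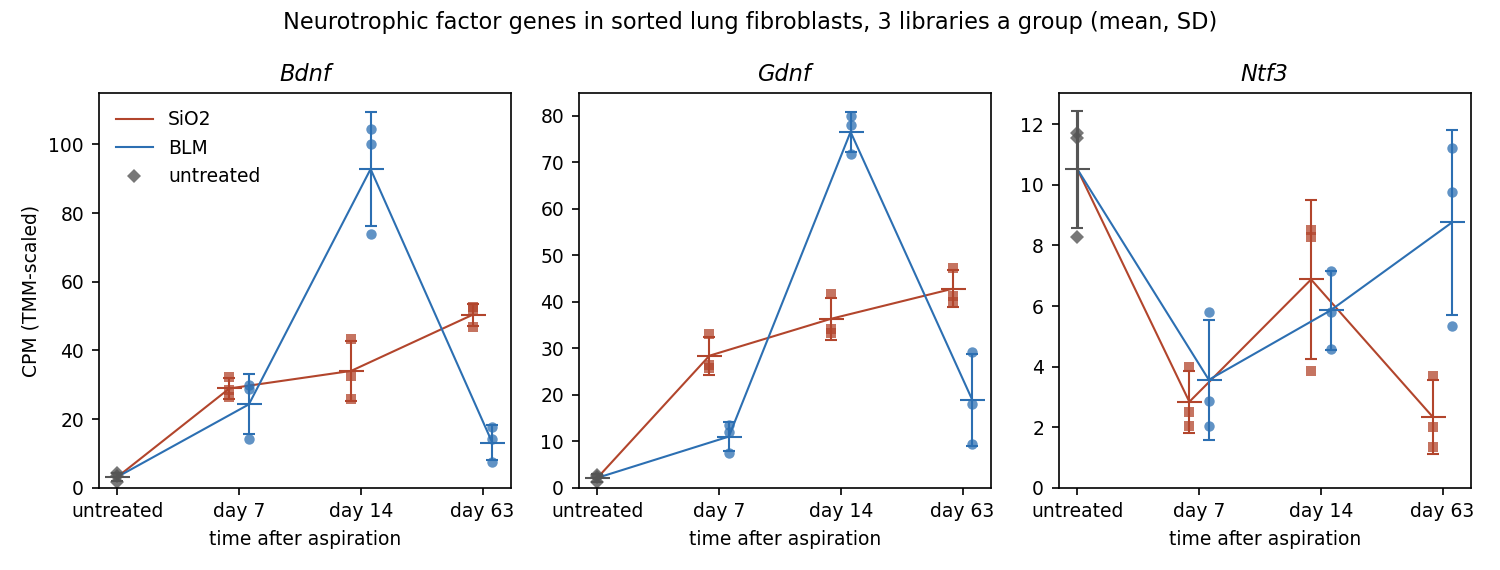
Level of Bdnf, Gdnf and Ntf3 in TMM-scaled CPM (vertical axes) in each of 21 libraries against day and agent (horizontal axis, evenly spaced groups, not to scale in time). Points are libraries, crossbars with whiskers are means ± SD of 3 libraries, and lines join the means of an agent. Bdnf and Gdnf peak at day 14 of BLM and stay above the untreated level at day 63 of SiO2 and of BLM, and Ntf3 is highest on average in untreated libraries.

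The plot of levels by day shows the order of the group means. For Bdnf, from low to high, it ran from untreated at 3.18 ± 1.23 CPM (SD, n = 3 in each group) through day 63 of BLM at 13.1 ± 5.16, day 7 of BLM at 24.3 ± 8.75, day 7 of SiO2 at 28.9 ± 2.97 and day 14 of SiO2 at 34.0 ± 8.80 to day 63 of SiO2 at 50.4 ± 3.16 and day 14 of BLM at 92.8 ± 16.6. The 4 groups in the middle of that order each overlapped their neighbour, and the other steps were without overlap. For Gdnf the order was untreated at 2.15 ± 0.814 CPM, day 7 of BLM at 11.0 ± 3.09, day 63 of BLM, day 7 of SiO2 at 28.4 ± 4.09, day 14 of SiO2 at 36.3 ± 4.55, day 63 of SiO2 at 42.8 ± 3.95 and day 14 of BLM at 76.5 ± 4.28. Neighbours without overlap in that order were untreated and day 7 of BLM, day 7 and day 14 of SiO2, and the top pair. For Ntf3 every neighbouring pair of groups overlapped, from day 63 of SiO2 at 2.34 ± 1.21 CPM to untreated at 10.5 ± 1.93 CPM.

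Set against the untreated group, the fold changes of Bdnf and Gdnf were among those of many genes that differed. The SE of a log2 fold change, here and below, is approximate, its size divided by the square root of edgeR's quasi-likelihood F statistic. With SiO2, the log2 fold change of Bdnf was 3.25 ± 0.338 (SE) at day 7, 3.48 ± 0.333 at day 14 and 4.05 ± 0.319 at day 63. That of Gdnf was 3.73 ± 0.348, 4.09 ± 0.339 and 4.32 ± 0.332 on the same days of SiO2. With BLM it was 2.99 ± 0.349, 4.93 ± 0.307 and 2.11 ± 0.375 for Bdnf and 2.37 ± 0.406, 5.16 ± 0.318 and 3.16 ± 0.366 for Gdnf. On the scale of group means, Bdnf at day 14 of BLM was 29.2 times and Gdnf 35.6 times the untreated level. All 6 comparisons share the 3 untreated libraries, so a low or high untreated value moves them together. No untreated group was matched to each day, so time or age cannot be told apart from the agent in these comparisons.

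In each of these 6 comparisons 2 of the 3 genes, Bdnf and Gdnf, had higher libraries without overlap. The same was true of 27.1%, 20.0% and 21.7% of all tested genes at day 7, 14 and 63 of SiO2 and of 22.2%, 25.3% and 14.5% at day 7, 14 and 63 of BLM. The genes were chosen with these values known, so nothing is read from that count. Ntf3 lay lower without overlap at day 7 of SiO2 with a log2 fold change of -1.87 ± 0.38, as did 24.3% of tested genes, and at day 63 of SiO2 with -2.14 ± 0.391, as did 18.5%. It also did so at day 7 of BLM with -1.51 ± 0.372, as did 20.4% of genes, and at day 14 of BLM with -0.81 ± 0.347, as did 23.2%. The day 7 value of BLM rested in part on replicate 2, without which it was -2.08. Ntf3 overlapped the untreated libraries at day 14 of SiO2 with -0.58 ± 0.332 and at day 63 of BLM with -0.26 ± 0.32.

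**Figure D2:**
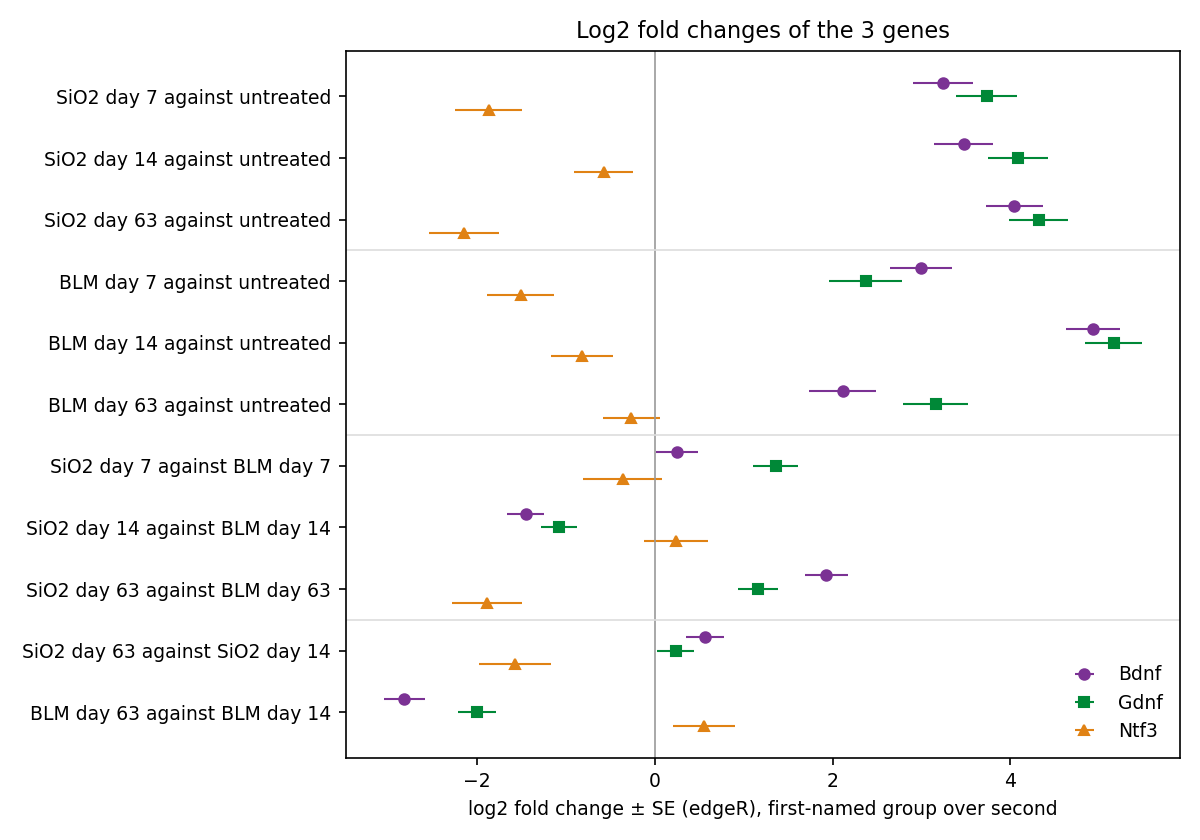
Log2 fold change of Bdnf, Gdnf and Ntf3 (horizontal axis) in each of 11 comparisons (vertical axis), the group named first over the second, from one edgeR model of 21 libraries. Points are estimates and bars are ± 1 approximate SE, the size of the estimate divided by the square root of edgeR's quasi-likelihood F statistic. Bdnf and Gdnf lie above 0 in all 6 comparisons with untreated, and in the comparisons of SiO2 with BLM both lie below 0 at day 14 and above 0 at day 63.

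The plot of fold changes also shows how the agents compared on the same day. At day 7, Gdnf was 2.58 times as high with SiO2 as with BLM (log2 fold change 1.36 ± 0.253), without overlap, as were 13.3% of tested genes, while Bdnf overlapped at 0.25 ± 0.235. At day 14 both lay lower with SiO2 than with BLM without overlap, Bdnf by a log2 fold change of -1.45 ± 0.211 and Gdnf by -1.08 ± 0.203, which 15.6% of tested genes also did. At day 63 both lay higher with SiO2 than with BLM without overlap, Bdnf at 3.84 times the BLM mean (1.93 ± 0.239) and Gdnf at 2.27 times (1.16 ± 0.221), in the company of 16.8% of tested genes. Ntf3 overlapped between the agents at day 7 and day 14, with -0.36 ± 0.445 and 0.24 ± 0.359. At day 63 it was lower with SiO2 than with BLM without overlap, with -1.88 ± 0.392, as were 14.5% of tested genes. At day 7 the estimate for Ntf3 was 0.21 without replicate 2 of BLM.

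From day 14 to day 63 the values of Bdnf and Gdnf ran differently with the 2 agents. With SiO2, Bdnf at day 63 lay above day 14 without overlap (log2 fold change 0.57 ± 0.215), as did 10.3% of tested genes, and Gdnf at day 63 overlapped day 14 (0.24 ± 0.208). Ntf3 in SiO2 was lower at day 63 than at day 14 without overlap, with -1.57 ± 0.406, as were 10.1% of genes. With BLM, both Bdnf and Gdnf were lower at day 63 than at day 14 without overlap, with log2 fold changes of -2.82 ± 0.234 and -2.00 ± 0.216, as were 22.8% of genes. The day 63 means with BLM were 0.141 of the day 14 mean for Bdnf and 0.247 for Gdnf, yet all day 63 libraries still stood above the untreated ones. Ntf3 with BLM overlapped between the days at 0.55 ± 0.347. The change in SiO2 minus the change in BLM was 3.39 for Bdnf, 2.24 for Gdnf and -2.12 for Ntf3 on the log2 scale, values without a test since these genes were chosen with them known.

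Bdnf and Gdnf moved together across the study. Over 21 libraries the Pearson r of their log2 CPM was 0.933, and the r of their deviations from the group means was 0.554. The libraries of a group share agent and day, so the first value describes mostly the group means. Within day 63 of BLM both genes were lowest in replicate 1 and highest in replicate 3. Ntf3 ran the other way over the 21 libraries, with r of -0.485 with Bdnf and -0.403 with Gdnf, and its deviations were near 0 with both, at 0.104 with Bdnf and -0.0869 with Gdnf.

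**Figure D3:**
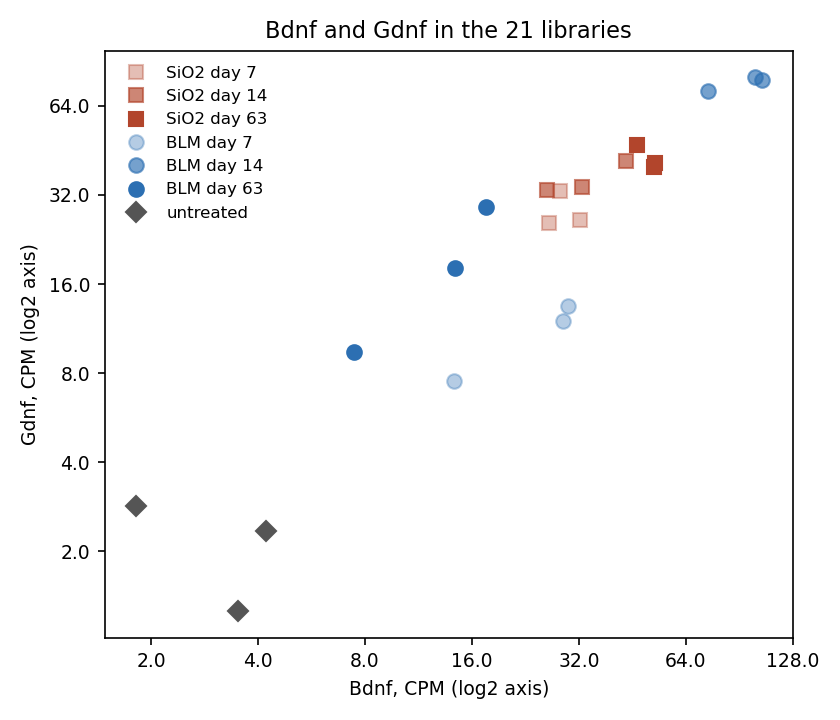
Level of Gdnf against that of Bdnf, both on log2 axes in TMM-scaled CPM, with 1 point for each of 21 libraries, coloured by group. The untreated libraries sit at the low corner, the day 14 BLM libraries at the high corner, and the SiO2 libraries lie between 25.8 and 52.5 CPM for both genes.

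The plot of Gdnf against Bdnf places each library by both levels. Among the other tested genes, Gdnf ranked 9 in likeness to Bdnf and Bdnf ranked 4 in likeness to Gdnf. The genes most like Bdnf were Bpgm (r = 0.963), Frzb (0.960), a secreted Wnt antagonist, Slc7a2 (0.956), a transporter of cationic amino acids, Pdzrn3 (0.956) and Enc1 (0.936). Frzb averaged 16.8, 28.0 and 62.3 CPM at day 7, 14 and 63 of SiO2 and 27.6, 87.8 and 12.7 CPM at the same days of BLM, against 0.242 CPM in untreated libraries, which is the same order of groups at the top and bottom as for Bdnf. The genes most like Gdnf were Rab31 (0.942), Ltbp2 (0.941), which encodes a latent TGF-beta binding protein family member of elastic fibres, Mark1 (0.934), Bdnf, and Fmod (0.933), a small collagen-binding proteoglycan. The likeness of Ntf3 to its nearest genes was lower, with Tacc2 (0.808), Tbc1d8 (0.805), Satb1 (0.789), Hebp1 (0.788) and Map10 (0.786). All these r are over 21 libraries, are ranked from the whole table and are a description only.

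Ntf5, which encodes the related neurotrophin-4, was scarce, with 61 counts in all 21 libraries together. The Ntf5 counts summed over 3 libraries were 16, 12 and 1 at day 7, 14 and 63 of SiO2 and 6, 21 and 2 at the same days of BLM, against 3 in untreated libraries. It did not pass the filter on low counts and was not tested. Of the 58 other genes counted here for the pathways, 51 had a row, 36 were tested, and 15 had too few counts. The 7 listed genes not analysed here include Gfra3, Alk and Erbb3.

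For the 36 tested genes, adjusted p are from edgeR's quasi-likelihood test with Benjamini-Hochberg adjustment over 11669 genes, and called means under 0.05. The list was chosen with earlier results of these data known, so nothing is read from a share above that of all genes. At day 7 of SiO2 against untreated 17 were higher and 6 lower, which is 63.9% of the list, against 44.1% of all tested genes (23.4% higher and 20.6% lower). At day 14 of SiO2 12 were higher and 3 lower, or 41.7%, against 24.1% of all genes (13.6% and 10.5%), and at day 63 14 and 3, or 47.2%, against 27.8% (15.3% and 12.5%). With BLM 12 were higher and 3 lower at day 7, or 41.7%, against 31.6% of all genes (16.7% and 14.9%). At day 14 of BLM 13 were higher and 6 lower, or 52.8%, against 39.3% (20.7% and 18.5%), and at day 63 3 and 2, or 13.9%, against 11.5% (6.02% and 5.48%). The median log2 fold change of the list against untreated ran from 0.15 to 0.339 in the SiO2 comparisons, and was 0.295, 0.247 and -0.143 at day 7, 14 and 63 of BLM, while that of all genes stayed between 0.0129 and 0.0361. Set against BLM on the same day, 4 were higher and 6 lower with SiO2 at day 7, or 27.8% of the list, against 10.4% of all genes (5.29% and 5.10%). At day 14 8 were higher and 5 lower, or 36.1%, against 17.1% (9.06% and 8.03%), and at day 63 13 and 0, or 36.1%, against 15.6% (9.13% and 6.44%). At day 63 of SiO2 2 were higher and 3 lower than at day 14, or 13.9%, against 3.52% of all genes (1.53% and 2.00%). At day 63 of BLM 4 were higher and 14 lower than at day 14, or 50%, against 32.3% (15.4% and 16.9%). Of the 36 genes, 4 passed the filter on low counts only through 1 group, namely Ngfr and Sorcs1 through day 63 of SiO2, Plg through untreated and Nrtn through day 14 of BLM. They stay in these counts, but a test of such a gene in that group is void, so its values are given as a description. Sdc3, Nrg1, Gfra1 and Ptn passed through several treated groups and reached the filter level in none of the untreated libraries, which favours their higher calls against untreated. Because the strand setting is not given, reads from genes on the opposite strand cannot be told apart where they overlap. The annotation has such genes in the loci of Ntrk2, Sort1, Sorl1, Sorcs1, Sorcs2, Furin, Pcsk5, Pcsk6, Pcsk7, Plg, Kidins220, Gfra1, Ncam1, Sdc3, Nrg1, Ctf1 and Erbb2 among the tested genes, so their values are uncertain to that extent. The count between the SiO2 days fell to 0 without replicate 3 of day 14 and to between 1 and 3 without any other 1 of the libraries compared. The day 7 count of SiO2 against BLM fell to 4 without SiO2 replicate 3, and to 6 without SiO2 replicate 2 or without BLM replicate 2 or 3.

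Ntrk2, which encodes the BDNF receptor TrkB, fell in all 6 treated groups. It had 30.9, 30.6 and 23.3 CPM at day 7 of SiO2, 27.0, 31.2 and 38.6 CPM at day 14, and 15.0, 19.4 and 22.5 CPM at day 63. With BLM, Ntrk2 had 45.8, 23.8 and 40.6 CPM at day 7, 22.2, 28.7 and 33.2 CPM at day 14, and 33.1, 32.1 and 21.8 CPM at day 63, against 57.0, 55.0 and 69.8 CPM in untreated libraries. In each comparison with untreated, 13.5% to 24.3% of tested genes lay lower without overlap. For Ntrk2 all 18 treated libraries lay below all 3 untreated ones, which the 6 comparisons share. Its log2 fold change was -1.09 ± 0.199 at day 7 (adjusted p = 4.37e-05), -0.89 ± 0.197 at day 14 (adjusted p = 0.0011) and -1.65 ± 0.208 at day 63 of SiO2 (adjusted p = 2.37e-07). With BLM it was -0.72 ± 0.197 at day 7 (adjusted p = 0.00543), -1.09 ± 0.203 at day 14 (adjusted p = 6.83e-05) and -1.06 ± 0.199 at day 63 (adjusted p = 0.000459), and the first of these did not pass without BLM day 7 replicate 2 (adjusted p = 0.0755).

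Ngfr, which encodes the p75 receptor, rested on few tags, and averaged 3.75 ± 1.12 CPM at day 63 of SiO2 and 1.16 ± 0.501 CPM at day 63 of BLM, against 1.63 ± 0.661 CPM in untreated libraries (SD, n = 3). It passed the filter only through day 63 of SiO2, so no test of that difference is given. Ntrk3, the receptor gene for neurotrophin-3, had 105 counts in all libraries together and was not tested. These were 8, 6 and 8 counts over 3 libraries each at day 7, 14 and 63 of SiO2 and 14, 19 and 32 at the same days of BLM, against 18 in untreated libraries.

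Among the sortilin family, sorting receptors that bind proneurotrophins or Trk receptors, Sorcs1 had 6.83, 7.45 and 5.34 CPM at day 63 of SiO2 and 0.747, 0 and 0.667 CPM at day 63 of BLM. These SiO2 libraries lay above these BLM libraries, as in 16.8% of tested genes. Sorcs1 passed the filter only through that SiO2 group, so the difference is a description and not a test. Sorcs1 had 78 counts at day 63 of SiO2 and 3 in untreated libraries, for the same reason a description only. Sorl1 fell at day 7 of SiO2 to 4.68 ± 2.08 CPM and at day 14 of BLM to 4.01 ± 0.615 CPM, against 16.1 ± 3.16 CPM in untreated libraries (SD, n = 3), with log2 fold changes of -1.74 ± 0.267 (adjusted p = 3.32e-06) and -1.97 ± 0.284 (adjusted p = 1.56e-06). Sorcs2 was higher at day 14 of SiO2 than at day 14 of BLM (1.05 ± 0.31, adjusted p = 0.0173). That call was lost without BLM replicate 1 or SiO2 replicate 3 and in a fit of only the 2 groups compared (adjusted p up to 0.31). Sort1, which encodes sortilin itself, passed in no comparison and averaged 41.3 to 58.1 CPM over the groups.

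Of the enzymes that can cut neurotrophin precursors, Pcsk5, a proprotein convertase, was higher at day 7 of SiO2, with 267 ± 41.0 CPM, and at day 14 of BLM, with 302 ± 70.6 CPM, against 92.5 ± 1.56 CPM in untreated libraries. These differences were log2 fold changes of 1.53 ± 0.143 (adjusted p = 3.41e-10) and 1.70 ± 0.143 (adjusted p = 6.36e-11). At day 63 Pcsk5 was higher with SiO2, at 125 ± 12.8 CPM, than with BLM, at 81.1 ± 5.16 CPM (0.63 ± 0.143, adjusted p = 0.00204). Plat, the tissue plasminogen activator that turns plasminogen into plasmin, was higher in all 6 treated groups, by log2 fold changes from 0.58 ± 0.136 at day 7 of SiO2 (adjusted p = 0.000823) to 1.37 ± 0.136 at day 14 of BLM (adjusted p = 1.93e-09). Mmp3, a matrix metalloprotease, was lower at day 7 of SiO2 (-0.78 ± 0.206, adjusted p = 0.00263) and higher at day 63 of SiO2 and of BLM (0.85 ± 0.19, adjusted p = 0.000847, and 0.84 ± 0.19, adjusted p = 0.00312). Plg, which encodes plasminogen, averaged 0.512 ± 0.25 CPM at day 7 of SiO2, against 4.34 ± 2.08 CPM in untreated libraries (SD, n = 3), and passed the filter only through the untreated group, so no test is given. Pcsk6 was lower at day 7 of SiO2 (-1.93 ± 0.511, adjusted p = 0.00264) and at day 14 of BLM (-2.13 ± 0.548, adjusted p = 0.00234). These calls rest on 11 and 8 counts over 3 libraries, against 36 in untreated libraries. Pcsk6 reached the filter level in every untreated library and in none of those 2 treated groups, which favours both calls. Pcsk7, which overlaps the contractile gene Tagln on the opposite strand, was lower at day 14 of SiO2 (-0.45 ± 0.11, adjusted p = 0.00266) and at day 63 of BLM (-0.59 ± 0.11, adjusted p = 0.000436). Furin was higher at day 7 of SiO2 (0.75 ± 0.24, adjusted p = 0.0114), a call lost without untreated replicate 1 or SiO2 replicate 3 (adjusted p up to 0.105).

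Of the adaptors of these receptors, 7 were tested. Sh2b2, an adaptor of receptor tyrosine kinases, averaged 6.73 ± 2.09 CPM at day 63 of SiO2 and 1.74 ± 0.434 CPM at day 63 of BLM, a log2 fold change of 1.92 ± 0.361 (adjusted p = 0.000243). Sh2b2 reached the filter level in no library at day 63 of BLM, which favours that call. Maged1 and Ngfrap1, whose products bind the p75 receptor, were higher at day 7 of SiO2, by 0.70 ± 0.138 (adjusted p = 0.000115) and 1.19 ± 0.26 (adjusted p = 0.000378). Shc1, another Trk adaptor, was higher at the same day by 0.75 ± 0.199 (adjusted p = 0.00272). Frs2 passed at day 14 of BLM alone among the comparisons with untreated (0.39 ± 0.153, adjusted p = 0.0426), and that call was lost in 6 other settings and without any 1 of untreated replicate 1 or 2 or the 3 BLM libraries (adjusted p up to 0.16). Kidins220 and Sh2b1 passed in no comparison.

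Of the genes for GDNF receptors, Ret had 2 counts, both in 1 of the 21 libraries, so its message was not detectable at this depth in the others. Gfra1, the co-receptor that binds GDNF, had 1.25, 1.06 and 2.28 CPM at day 7 of SiO2, 1.78, 2.40 and 2.19 CPM at day 14, and 2.89, 5.86 and 3.12 CPM at day 63. With BLM it had 2.32, 7.66 and 6.66 CPM at day 7, 10.2, 13.4 and 17.7 CPM at day 14, and 1.49, 0.861 and 2.67 CPM at day 63, against 1.55, 2.26 and 2.34 CPM in untreated libraries. The day 14 BLM libraries lay above all the others. Gfra1 there was higher than in untreated libraries (log2 fold change 2.77 ± 0.397, adjusted p = 1.4e-06), and it was lower at day 14 of SiO2 than at day 14 of BLM (-2.69 ± 0.38, adjusted p = 4.04e-06). Gfra1 reached the filter level in no library at day 14 of SiO2, which favours the call between the agents. At day 63 of BLM it was lower than at day 14 (-2.98 ± 0.388, adjusted p = 4.4e-07). The day 7 call of BLM against untreated (1.45 ± 0.445, adjusted p = 0.0121) was lost without untreated replicate 1 or BLM replicate 2 (adjusted p up to 0.104).

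Of the other genes for GDNF receptors and binding proteins, Sdc3 and Ncam1 rose and Gfra2 fell in some groups. Sdc3, which encodes a heparan sulfate proteoglycan that binds GDNF, averaged 8.60 ± 2.67, 8.33 ± 3.46 and 10.5 ± 2.19 CPM at day 7, 14 and 63 of SiO2 and 9.82 ± 2.25, 9.83 ± 2.51 and 3.90 ± 1.03 CPM at the same days of BLM, against 1.34 ± 0.792 CPM in untreated libraries (SD, n = 3). It was higher in 5 of the 6 groups, by log2 fold changes of 2.44 ± 0.426 (adjusted p = 5.89e-05) to 2.78 ± 0.409 (adjusted p = 3.48e-06), and higher at day 63 of SiO2 than of BLM (1.41 ± 0.326, adjusted p = 0.00243). Ncam1, the adhesion molecule that can carry GDNF signals without Ret, averaged 29.2 ± 3.42 CPM at day 7 of SiO2 and 21.6 ± 6.50 CPM at day 14 of BLM, against 5.76 ± 0.735 CPM in untreated libraries, with log2 fold changes of 2.35 ± 0.28 (adjusted p = 4.2e-08) and 1.90 ± 0.293 (adjusted p = 4.55e-06). At day 63 of SiO2, where Gdnf was high, Ncam1 averaged 4.86 ± 1.82 CPM and did not pass against untreated. Gfra2, the co-receptor for neurturin, fell in these same groups, by -1.70 ± 0.27 at day 7 of SiO2 (adjusted p = 5.74e-06) and -1.30 ± 0.266 at day 14 of BLM (adjusted p = 0.000206). Artn, a GDNF family ligand, was higher at each day of SiO2 by 1.20 ± 0.395 (adjusted p = 0.0141), 1.31 ± 0.393 (adjusted p = 0.0135) and 1.27 ± 0.391 (adjusted p = 0.0136), but each call was lost without untreated replicate 2 (adjusted p up to 0.139). The day 7 call was also lost without SiO2 replicate 1 or 3, the day 14 call without SiO2 replicate 2 and the day 63 call without SiO2 replicate 3. Gdf15, whose product binds GFRAL, was lower at day 7 of SiO2 than of BLM (-1.45 ± 0.456, adjusted p = 0.0374). That call was lost without any 1 of the 6 libraries, and with no filter, the DESeq2 Wald test or limma-voom (adjusted p up to 0.134). Gdf15 also reached the filter level in no library at day 7 of SiO2 and in all at day 7 of BLM, which favours the call. Nrtn, the neurturin gene, passed in no comparison.

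**Figure D4:**
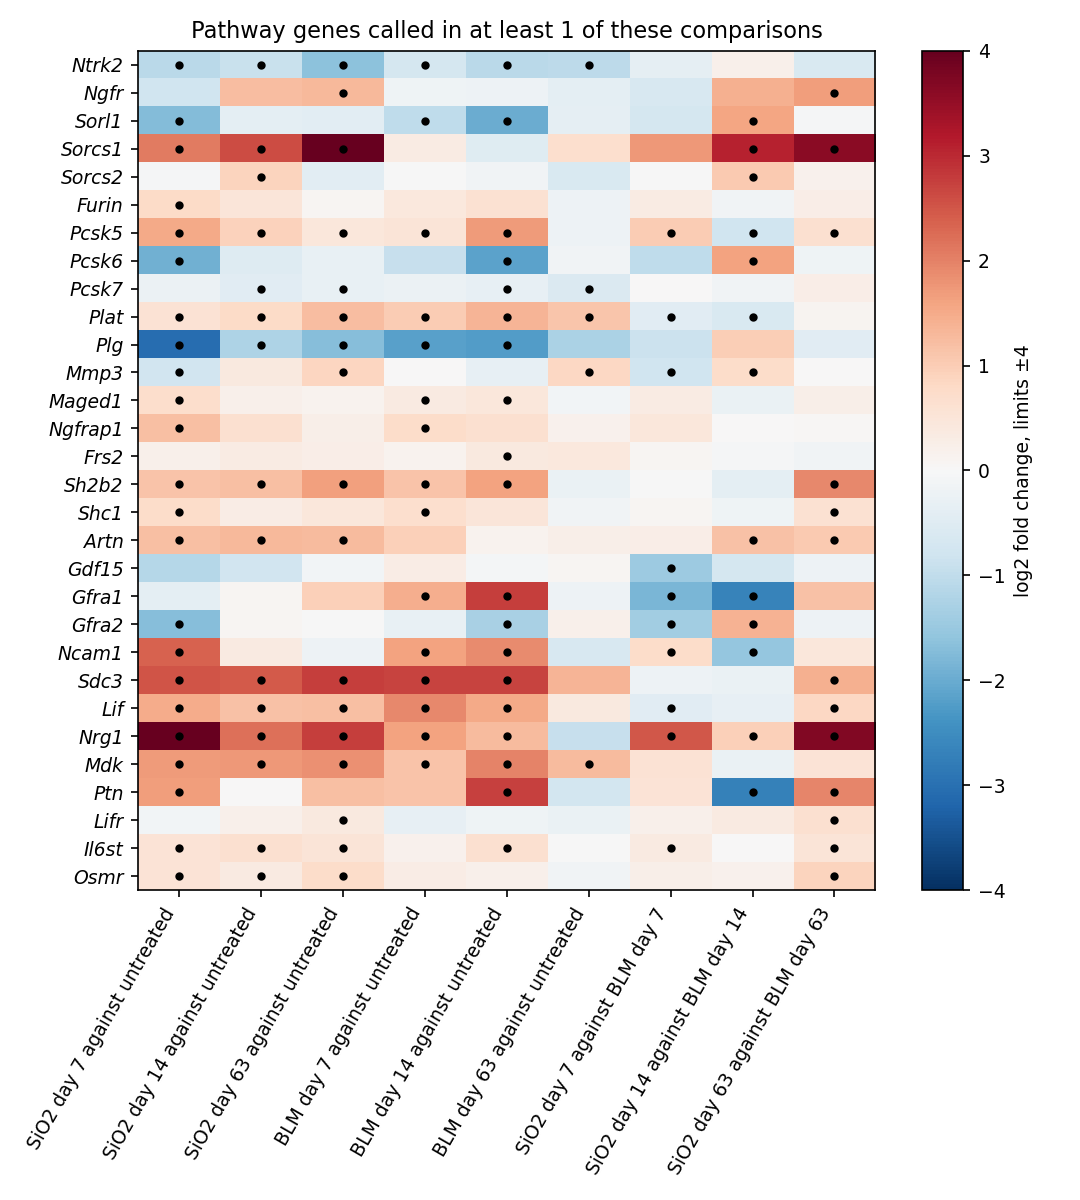
Log2 fold change (colour, limited at ± 4) of the 30 listed pathway genes called in at least 1 comparison (rows) in the 9 comparisons of treated with untreated and of SiO2 with BLM (columns). Black dots mark an adjusted p under 0.05, which is void for Ngfr and Sorcs1 in day 63 of SiO2 and for Plg in untreated. Ntrk2 is lower in all 6 comparisons with untreated, and no gene is called lower with SiO2 than with BLM at day 63.

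The colour map of the listed genes also holds the other neurotrophic factors. Nrg1, a neuregulin that supports Schwann cells, had 28.3, 22.6 and 18.0 CPM at day 7 of SiO2, 5.65, 7.73 and 5.10 CPM at day 14, and 9.46, 7.19 and 10.5 CPM at day 63. With BLM it had 3.19, 4.75 and 4.12 CPM at day 7, 2.83, 3.88 and 2.76 CPM at day 14, and 0.498, 0.861 and 0.667 CPM at day 63, against 1.30, 1.51 and 0.936 CPM in untreated libraries. Libraries of 13.3%, 16.2% and 16.8% of tested genes lay higher with SiO2 than with BLM without overlap at day 7, 14 and 63. For Nrg1 too, every SiO2 library lay above every BLM library of the same day. At day 63 the log2 fold change of SiO2 over BLM was 3.70 ± 0.374 (adjusted p = 9.36e-09), and at day 7 it was 2.499 ± 0.249 (adjusted p = 1.68e-08). Nrg1 reached the filter level in no library at day 63 of BLM, which favours the day 63 call. The day 14 call was lost in 4 other settings and without BLM replicate 1 or 3 or SiO2 replicate 2 (adjusted p up to 0.152).

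Lif, a cytokine that signals through Lifr and Il6st, had 966 ± 119, 787 ± 99.1 and 806 ± 35.4 CPM at day 7, 14 and 63 of SiO2 and 1308 ± 204, 998 ± 137 and 458 ± 62.0 CPM at the same days of BLM, against 348 ± 68.1 CPM in untreated libraries (SD, n = 3). It was higher in all but the day 63 BLM group, by log2 fold changes of 1.17 ± 0.137 (adjusted p = 1.08e-07) to 1.91 ± 0.139 (adjusted p = 9.09e-12), and at day 63 it was higher with SiO2 than with BLM (0.81 ± 0.135, adjusted p = 4.37e-05). Mdk and Ptn encode the related heparin-binding factors midkine and pleiotrophin. Mdk was higher at day 7, 14 and 63 of SiO2 by 1.71 ± 0.341 (adjusted p = 0.000128), 1.74 ± 0.342 (adjusted p = 0.00026) and 1.82 ± 0.337 (adjusted p = 9.55e-05). It was also higher at day 7, 14 and 63 of BLM, by 1.14 ± 0.366 (adjusted p = 0.0165), 2.00 ± 0.338 (adjusted p = 1.8e-05) and 1.28 ± 0.354 (adjusted p = 0.0159). The day 7 call of BLM was lost without untreated replicate 2 or BLM replicate 2 (adjusted p up to 0.0712), and the day 63 call without untreated replicate 2 or 3 or BLM replicate 3 and with limma-voom (adjusted p up to 0.135). Ptn was higher at day 14 of BLM, at 9.67 ± 5.08 CPM, than in untreated libraries, at 1.48 ± 0.439 CPM (2.72 ± 0.465, adjusted p = 2.12e-05). Osmr, the oncostatin M receptor, Lifr and Il6st were higher at day 63 of SiO2 than of BLM, by 0.88 ± 0.116 (adjusted p = 1.4e-06), 0.64 ± 0.143 (adjusted p = 0.00152) and 0.53 ± 0.104 (adjusted p = 0.000427). Ctf1 and Erbb2 passed in no comparison, and Cntf and Clcf1 had 3 counts each in all libraries together.

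Markers of other cell types were read beside these values. Of 8 neuron markers 4 had a row, and their sum was 34.5 to 52.9, 11.2 to 14.0 and 16.0 to 21.3 CPM at day 7, 14 and 63 of SiO2 and 30.8 to 43.0, 23.8 to 35.3 and 4.48 to 7.34 CPM at the same days of BLM, against 1.3 to 4.27 CPM in untreated libraries. Nearly all of it was Tubb3, with 1582 counts, whereas the neuronal genes Elavl3, Prph and Stmn2 had 15, 10 and 12 counts in all 21 libraries together and were at or near 0. Of 8 Schwann cell markers 4 had a row, and they summed to 4.01 to 19.4 CPM over all libraries, mostly from Mbp. Of 7 smooth muscle and pericyte markers all had a row, and their sum was 84.8 to 119, 36.8 to 41.3 and 47.7 to 62.3 CPM at day 7, 14 and 63 of SiO2 and 52.5 to 108, 91.7 to 150.1 and 43.8 to 59.4 CPM at the same days of BLM, against 19.7 to 22.8 CPM in untreated libraries. Des gave most of it, and Cnn1, Rgs5 and Mcam were at 0 in some libraries. On average this sum was highest at day 14 of BLM, as were Bdnf and Gdnf, and its libraries there overlapped those of day 7 of both agents. Its lowest treated mean, 38.7 CPM, was at day 14 of SiO2, that of Bdnf at day 63 of BLM and that of Gdnf at day 7 of BLM. Whether these cells had a part in the levels of either gene was not tested. Of 7 myeloid markers 6 had a row, and their sum was 9.11 to 13.5, 18.0 to 32.1 and 18.7 to 23.7 CPM at day 7, 14 and 63 of SiO2 and 14.5 to 22.5, 9.67 to 14.6 and 2.67 to 5.45 CPM at the same days of BLM, against 3.11 to 6.53 CPM in untreated libraries, mostly from Tyrobp, while Ptprc had 19 counts in all. Of 6 endothelium markers 5 had a row, and their sum was 4.56 to 11.0, 13.1 to 26.0 and 12.0 to 14.2 CPM at day 7, 14 and 63 of SiO2 and 10.8 to 18.3, 5.65 to 9.67 and 10.7 to 17.7 CPM at the same days of BLM, against 21.6 to 30.4 CPM in untreated libraries. It came from Tek and Kdr, while Pecam1, Cdh5 and Cldn5 had 6, 3 and 2 counts in all 21 libraries together. Of 7 epithelium markers all had a row, and their sum was 19.2 to 27.3, 6.40 to 10.2 and 2.67 to 4.73 CPM at day 7, 14 and 63 of SiO2 and 25.7 to 30.2, 6.63 to 7.47 and 6.22 to 9.76 CPM at the same days of BLM, against 6.53 to 10.8 CPM in untreated libraries. Sftpc and Sftpb gave most of it, and Epcam and Cdh1 had 18 and 6 counts. Of 5 mesothelium markers all had a row, and their sum was 37.5 to 56.2, 93.5 to 194.6 and 34.9 to 51.9 CPM at day 7, 14 and 63 of SiO2 and 81.1 to 175, 75.9 to 88.4 and 39.9 to 48.8 CPM at the same days of BLM, against 76.7 to 151 CPM in untreated libraries. Krt19 and Msln gave most of it. Of 6 lymphocyte markers 4 had a row, and they summed to 0 to 1.16 CPM over all libraries. The part of any of these markers in the levels of the 3 genes was not tested.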

How the data were processed

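Per the labels' protocols, polyA RNA of sorted fibroblasts was amplified and 3′ tags were sequenced (3′SAGE-seq, Ion Proton). The values deposited by the authors are raw whole-number counts for each symbol and library. The submitters' processing notes give Bowtie2 2.2.5 and mm10, and the annotation, counting program and strand setting are not given in the sources used here. The 21 libraries were grouped by their titles into 7 groups of 3. Counts were filtered with edgeR's filterByExpr by group, scaled by TMM and fitted as one quasi-likelihood model of the 7 groups (edgeR 4.0.16, R 4.3.3, 14 residual degrees of freedom, biological coefficient of variation 12%), with Benjamini-Hochberg adjustment over 11669 genes and an adjusted p under 0.05 as the threshold. The steps were tested on simulated data. CPM are TMM-scaled, and correlations used log2 CPM with a prior count of 2. No 2 libraries of the same group agreed within sampling noise.

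The 3 genes and all gene lists were chosen with earlier results of these data known. Named were the 3 genes, pathway genes called in at least 1 comparison, untested ones by their counts, and for each of the 3 the 5 genes with the highest Pearson r. Some listed genes are not reported here and are left out of every count of the list. The comparisons described for each were picked after their values were seen. Alternatives were DESeq2 1.42.0 (size factors, Wald test), upper quartile scaling, no filter, limma-voom (limma 3.58.1), a replicate block, a fit of only the 2 groups compared, and leaving out each library.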

Additional observations from a re-analysis of the deposited data

Results flagged for a closer look

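The change from day 14 to day 63 was compared between the agents, as the change in SiO2 minus the change in BLM, a contrast chosen after seeing the data. Of the 36 tested pathway genes, 14 passed edgeR's quasi-likelihood test of that difference, 12 with a positive and 2 with a negative value, against 18.5% of all tested genes. The comparisons share libraries with those of the report. On the log2 scale the differences were 3.84 for Gfra1, 1.99 for Ncam1 and 1.67 for Sdc3 among GDNF receptors, and -1.60 for Gfra2. Among other factors they were 4.65 for Ptn, 2.75 for Nrg1 and 1.16 for Lif, with 0.72 for Osmr and 0.52 for Il6st among their receptors. The differences were 1.41 for Pcsk5, 0.71 for Plat, 2.32 for Sh2b2 and 0.78 for Shc1, and -1.64 for the sorting receptor Sorl1. Shc1 lay just under the threshold (adjusted p = 0.0497). The large values of Ptn and Gfra1 rest on few tags, 16 and 24 counts at day 14 of SiO2 and 10 and 21 at day 63 of BLM. For Bdnf the difference of 3.39 was not tested, and it is listed since every SiO2 library at day 63 lay above every one at day 14 while every BLM library at day 63 lay below every one at day 14. Groups of 3 libraries were too small for a check of single outlying libraries.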

How the results depend on the processing

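Of 429 log2 fold changes of Bdnf, Gdnf and Ntf3 under the alternatives, 426 stayed within the spread between replicates, 3 moved and 0 changed sign while called. Those 3 came from leaving out 1 library. Leaving out 1 of 3 libraries moves a group mean by less than that spread almost by construction, so the count of 426 is not read as stability. Gdnf at day 14 of BLM against untreated ranged from 4.83 to 5.503, Ntf3 at day 7 of BLM against untreated from -2.08 to -1.22, and Ntf3 at day 7 of SiO2 against BLM from -0.68 to 0.21. Without 1 library, pathway calls ranged from 0 to 3 for day 63 against day 14 of SiO2 (5 with all) and from 4 to 7 for SiO2 against BLM at day 7 (10 with all). Calls over all genes then ranged from 795 to 1219 for day 63 of BLM against untreated (1343 with all, 795 when untreated replicate 1 is left out and 814 when it is BLM day 63 replicate 3) and from 201 to 325 for day 63 against day 14 of SiO2 (411 with all). Fewer libraries leave fewer degrees of freedom, and no other cause was tested. Of 153 pathway gene calls, 98 held under every alternative, 55 were lost under at least 1 and 0 reversed. Upper quartile scaling moved the share of higher calls at day 14 of SiO2 against untreated from 56.4% to 44.8%. Groups share replicate numbers, but same-numbered libraries did not deviate together (63 pairs, r from -0.12 to 0.0616). With the replicate number as a block, 24 pathway genes were called at day 7 of SiO2 against untreated in place of 23, and 5 at day 63 of BLM against untreated as without it. Depth limits Ntf3 and the untreated levels of Bdnf and Gdnf, at 5 to 46 counts per library.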
